A study of Homo sapiens with 34 samples.

Results

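The mitochondrial ribosome is built from proteins encoded in the nucleus and RNAs encoded in the mitochondrial genome, and its nuclear protein genes carry the symbols *MRPL* (large subunit) and *MRPS* (small subunit). These genes were followed through a time course in U2OS, an established line from a human osteosarcoma, here stably carrying luciferase driven by the *Bmal1* promoter (*Bmal1*:*luc*). Members were the loci of the expression tables whose gene name was MRPL or MRPS followed by a number, without pseudogenes, and whose mean expression over 24 libraries was at least 1 FPKM (fragments per kilobase of transcript, scaled to library size). Of 28690 loci, 86 carried such a name and 77 passed, each for a different gene. The other 9 were listed at 0 in all libraries, and pseudogenes took up 3 further loci. The rule used no comparison between conditions or times. Of all loci, 13979 passed the same expression filter and were the background for the counts of loci below. Promoter motifs were set beside all promoter windows of the reference, whether or not the gene was expressed.

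Cells synchronized with dexamethasone were cultured in 5 mM 6-aminonicotinamide (6AN), a compound converted to an NADP+ analog that inhibits the pentose phosphate pathway, or in a matched amount of DMSO (control). Total RNA depleted of rRNA was sequenced every 4 hr, with labels from CT00 to CT44, giving 12 libraries per condition. At 24 hr of treatment, ChIP-seq was performed for the clock factors BMAL1 and CLOCK and for the histone marks H3K4me3 and H3K9ac, with 1 library per antibody and condition and 1 input per condition. All cells carried the reporter, and the line stands for 1 tumor cell type. Read totals were not in the tables, and relative depth within a table, estimated from the steps between low FPKM values, ran from 0.582 to 1.30 of the median library in control (lowest at CT04) and from 0.692 to 1.54 in 6AN (lowest at CT20). The mesenchymal markers *VIM*, *SPARC*, *COL1A1*, *FN1*, and *RUNX2* had mean levels of 13.9 to 832 FPKM, while *EPCAM*, *PTPRC*, *ALB*, and *PECAM1*, markers of epithelial, blood, liver, and endothelial cells, stayed under 1 FPKM on average. Of the mesenchymal markers, *COL1A1*, *SPARC*, *FN1*, and *VIM* were lower in 6AN at all time points, with log2 ratios from -1.89 to -0.29, and the part of this in the members' values was not tested.

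Control and 6AN tables were normalized separately and held 1 library per time point, so levels in 6AN and control were set side by side with no test. A difference between the tables in normalization cannot be told apart from a difference between cells. Errors on log2 ratios are jackknife standard errors (SE) over the 12 time points and do not hold the variation between experiments.

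Mitoribosomes translate only the few messages of the mitochondrial genome, which encode core subunits of the oxidative phosphorylation (OXPHOS) complexes. Some of its proteins descend from the bacterial ancestor and others were acquired later in mitochondria, and both kinds are made in the cytosol and imported. The members were therefore grouped as large-subunit proteins with a bacterial homologue (28 genes), large-subunit proteins particular to mitochondria (22), small-subunit proteins with a bacterial homologue (16), and small-subunit proteins particular to mitochondria (11). *MRPS18A* and *MRPS30* were placed in the large subunit, where their proteins sit. Apart from a few such exceptions, the groups followed the number in the gene name. Homology was not checked protein by protein, so a group may hold proteins of the other kind. *MRPL47*, for example, was placed by its number alone. *MRPS36*, counted here by its name, encodes a protein now known as a subunit of the 2-oxoglutarate dehydrogenase complex (current symbol *KGD4*).

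All of the 77 genes except *MRPL42*, *MRPL19*, and *MRPL22* had a mean level above the median of all loci tested. Mean FPKM over the 24 libraries ran from 8.21 to 243 with a median of 41.0, against a median of 11.5 over all loci tested. The highest levels, per kilobase of transcript, belonged to *MRPL51* (243), *MRPS24* (216), *MRPL33* (197), *MRPL41* (192), and *MRPL14* (186). The lowest belonged to *MRPL42* (8.21), *MRPL19* (9.0), *MRPL22* (10.4), *MRPL57* (12.1), and *MRPS25* (12.5). The locus of *MRPS24* also carried the names of *URGCP* and the readthrough gene *URGCP-MRPS24*, that of *MRPS6* also carried *SLC5A3*, and that of *MRPL53* also carried *CCDC142*, so these 3 levels may include reads of the other genes. Among the lowest members the ranges over libraries overlapped. *MRPL42* lay between 6.83 and 10.3 FPKM in control, *MRPL19* between 9.18 and 11.3, and *MRPL22* between 9.27 and 13.4, so the order of these neighbors was within their spread. At the top, *MRPL51* (218 to 286 FPKM in control) and *MRPL33* (204 to 281) overlapped as well. The members were spread over 21 chromosomes, with 8 each on chromosomes 1 and 2.

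Promoters of the members were examined because BMAL1 and CLOCK binding was measured in the same cells. BMAL1 and CLOCK form a heterodimer that binds E-boxes. NRF1, YY1, and ETS factors such as GABPA are known regulators of nuclear genes for mitochondrial proteins. RefSeq promoter windows (GRCh38.p14, 300 bases each, running from upstream of a transcript start to shortly past it) were found for 69 of 77 members, 1 of them under a newer symbol, in 85 windows. The members without one were *MRPL2*, *MRPL10*, *MRPL13*, *MRPL15*, *MRPL21*, *MRPL23*, *MRPL35*, and *MRPS28*. The ETS letters CCGGAAG, searched on both strands, were found in 32 of the 85 windows (37.6%), against 10.3% of all 35116 windows. These 35116 windows were not filtered by expression. The YY1 letters ATGGCGGC were found in 19 (22.4%), against 3.0% of all windows. The E-box CACGTG was found in 10 (11.8% against 7.26%), and CGCATGCG, the core of the NRF1 palindrome, in 3 (3.53% against 2.02%). No searched motif was part of another. Of the 20 YY1 matches, found in 18 of 69 members, 16 lay on the gene's own strand, and each of these began at +10 to +39, where +1 is the first transcribed base and -1 the base before it. *MRPL47* had 2 overlapping windows, so its match was counted in both. ETS and YY1 letters together were found in windows of *MRPL38*, *MRPL47*, *MRPS10*, and *MRPS18A*. A match is a description of sequence and not a binding site. The YY1 letters begin with ATG, as a start codon does, and whether these matches lie at start codons was not tested.

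The following 6 windows are shown 5′ to 3′ on the strand of the gene, with the motif letters in capitals. *MRPL40* was the member whose promoter was in all 4 peak lists, *MRPL36*, *MRPL45*, and *MRPS18C* joined an E-box to a peak, *MRPS10* held an ETS and a YY1 match, and *MRPL1* had the second lowest 6AN to control ratio of all members. The windows were chr22:19432295-19432594 (+) for *MRPL40*, chr5:1799788-1800087 (-) for *MRPL36*, chr17:38296918-38297217 (+) for *MRPL45*, chr4:83455808-83456107 (+) for *MRPS18C*, chr6:42217812-42218111 (-) for *MRPS10*, and chr4:77862580-77862879 (+) for *MRPL1*. The capitals mark an ETS match in *MRPL40*, an E-box and a reversed YY1 match in *MRPL36*, an E-box in *MRPL45*, ETS, E-box, and NRF1 matches in *MRPS18C*, ETS and YY1 matches in *MRPS10*, and a YY1 match in *MRPL1*.
MRPL40: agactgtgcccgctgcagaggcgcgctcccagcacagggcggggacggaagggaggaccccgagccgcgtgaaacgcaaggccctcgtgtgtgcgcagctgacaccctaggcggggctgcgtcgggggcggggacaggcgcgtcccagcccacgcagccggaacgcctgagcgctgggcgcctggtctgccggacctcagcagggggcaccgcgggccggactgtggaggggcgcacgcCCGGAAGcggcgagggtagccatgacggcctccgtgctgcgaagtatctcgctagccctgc
MRPL36: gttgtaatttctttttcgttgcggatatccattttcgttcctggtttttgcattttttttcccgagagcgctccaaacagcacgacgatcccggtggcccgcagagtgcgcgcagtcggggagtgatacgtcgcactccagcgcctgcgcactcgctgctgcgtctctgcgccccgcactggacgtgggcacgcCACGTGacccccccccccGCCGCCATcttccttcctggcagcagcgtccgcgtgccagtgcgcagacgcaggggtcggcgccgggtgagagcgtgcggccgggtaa
MRPL45: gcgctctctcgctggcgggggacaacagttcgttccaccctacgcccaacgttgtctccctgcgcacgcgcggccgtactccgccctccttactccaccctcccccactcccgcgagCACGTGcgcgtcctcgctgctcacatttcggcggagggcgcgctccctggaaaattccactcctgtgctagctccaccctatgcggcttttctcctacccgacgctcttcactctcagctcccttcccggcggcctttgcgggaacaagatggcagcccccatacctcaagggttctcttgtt
MRPS18C: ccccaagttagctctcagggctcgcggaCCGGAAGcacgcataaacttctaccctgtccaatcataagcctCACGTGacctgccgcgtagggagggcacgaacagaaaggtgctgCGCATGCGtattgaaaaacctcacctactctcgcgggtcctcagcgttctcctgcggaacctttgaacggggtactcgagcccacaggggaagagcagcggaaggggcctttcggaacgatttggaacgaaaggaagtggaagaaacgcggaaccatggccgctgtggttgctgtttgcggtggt
MRPS10: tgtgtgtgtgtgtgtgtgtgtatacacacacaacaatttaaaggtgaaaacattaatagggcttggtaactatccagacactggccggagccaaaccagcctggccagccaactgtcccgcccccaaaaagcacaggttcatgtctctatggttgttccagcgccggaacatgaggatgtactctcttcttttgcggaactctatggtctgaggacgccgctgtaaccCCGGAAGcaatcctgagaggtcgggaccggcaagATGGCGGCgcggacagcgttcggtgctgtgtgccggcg
MRPL1: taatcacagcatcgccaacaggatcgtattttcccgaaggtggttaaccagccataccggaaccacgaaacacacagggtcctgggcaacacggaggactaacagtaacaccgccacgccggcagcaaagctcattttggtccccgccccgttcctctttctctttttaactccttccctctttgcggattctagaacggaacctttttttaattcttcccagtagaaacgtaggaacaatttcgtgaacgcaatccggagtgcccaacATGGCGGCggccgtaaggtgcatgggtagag

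BMAL1 or CLOCK peaks lay near these genes about as often as near all loci tested. The merged peak list held 4001 intervals, of which 2898 were in only 1 of the 4 peak lists. An interval of any list lay within 1 kb of the locus of 23 members (29.9%), against 27.3% of all loci tested, and member loci were shorter (median length of 11178 bases against 33525). By list, 7 members had a BMAL1 peak in control (9.09%, background 13.1%), 19 a BMAL1 peak in 6AN (24.7%, background 18.1%), 3 a CLOCK peak in control (3.90%, background 1.90%), and 5 a CLOCK peak in 6AN (6.49%, background 8.09%). With 1 ChIP-seq library per antibody and condition, none of these counts had a test.

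Of the 26 intervals at member loci, 20 were in a single list, and 16 of these were in the BMAL1 list of 6AN, which was also the longest list (2314 intervals, against 1577 for BMAL1 in control, 289 for CLOCK in control, and 1369 for CLOCK in 6AN). The 6 intervals in at least 2 lists lay at *MRPL40*, *MRPL36*, *MRPL43*, *MRPL14*, *MRPL44*, and *MRPS16*, each with its center between -142 and -38 bases from a transcript start. That of *MRPL40*, which encodes a protein of the large subunit, was in all 4 lists with its center at -98. *MRPL36*, which encodes one of the smallest proteins of the particle, was in 3 lists (both BMAL1 lists and CLOCK in control) with its center at -38, and its E-box began at -56. *MRPL45* was in the CLOCK list of 6AN alone, with the center at -130 and the E-box beginning at -133. *MRPS18C* was in the BMAL1 list of 6AN alone, with the center at -111 and the E-box beginning at -179. *MRPL43*, with its center at -93, was in both CLOCK lists and the BMAL1 list of control, and *MRPL14* (-142), *MRPL44* (-73), and *MRPS16* (-66) were in both BMAL1 lists. The other members with an interval were in 1 list each, *MRPL33* in the BMAL1 list of control, *MRPS15* in the CLOCK list of 6AN, and *MRPL2*, *MRPL10*, *MRPL12*, *MRPL13*, *MRPL17*, *MRPL18*, *MRPL20*, *MRPL39*, *MRPL54*, *MRPS6*, *MRPS12*, *MRPS17*, and *MRPS18B* in the BMAL1 list of 6AN.

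**Figure D1:**
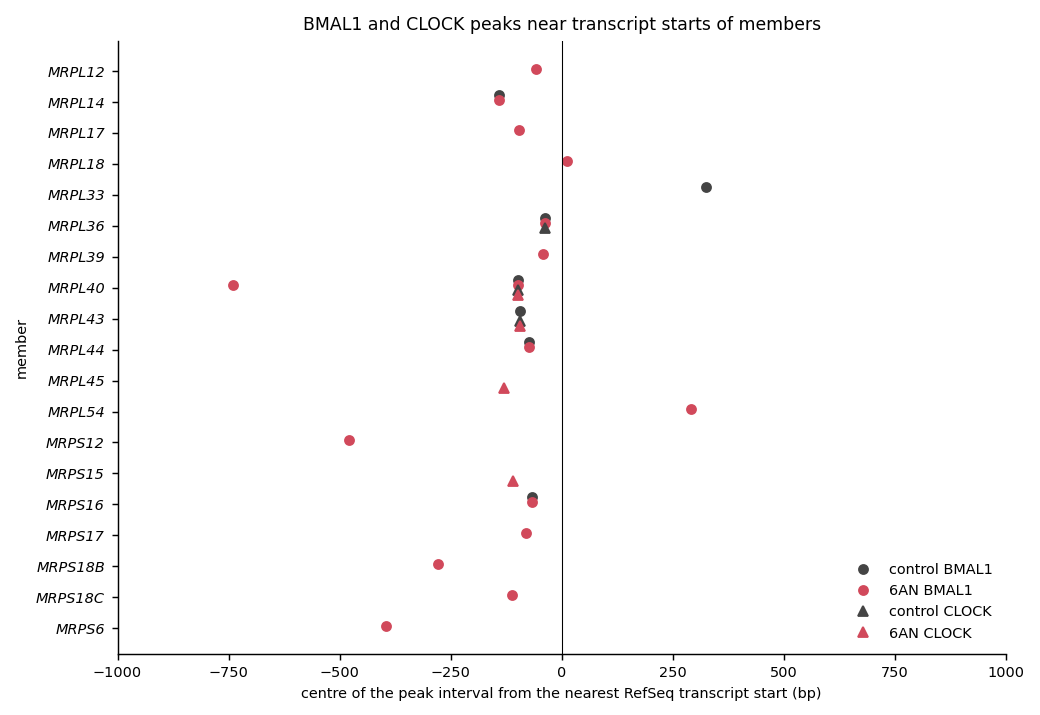
Distance in bp from the nearest RefSeq transcript start to the center of each peak interval, for members with an interval within 1000 bp of a start. Circles mark BMAL1 and triangles CLOCK, in control (grey) and 6AN (red). *MRPL40* alone has all 4 symbols at 1 place, -98, and most other members have 1 symbol.

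Signal was deposited only for sites shared by BMAL1 and CLOCK within a condition (147 sites in control and 439 in 6AN), in tags per 1000 bp scaled to the same total per library. At the *MRPL40* promoter site of the 6AN list, tags for BMAL1 stood at 38.9 (control) and 46.2 (6AN) and for CLOCK at 46.6 and 72.5, against inputs of 12.5 and 22.3. Over all 439 sites of that list the medians were 26.1 and 34.8 for BMAL1 and 25.7 and 53.8 for CLOCK. At the *MRPL36* promoter, in the control list, BMAL1 was 30.8 and 30.4 and CLOCK 34.3 and 31.9, with inputs of 8.57 and 8.29. The histone marks were lower in the 6AN library at both promoters. H3K9ac was 358 in control and 278 in 6AN at *MRPL40* and 181 and 89.4 at *MRPL36*, and H3K4me3 was 556 and 482 at *MRPL40* and 353 and 196 at *MRPL36*. Over all sites, the medians of H3K9ac were 74.5 in control and 77.7 in 6AN (439 sites) and 88.7 and 96.8 (147 sites), and those of H3K4me3 were 140 and 136 (439 sites) and 175 and 167 (147 sites). Another site of the 6AN list, intergenic and at -37473 from the start of *MRPS18A*, had BMAL1 signals of 20.8 in control and 69.0 in 6AN and CLOCK signals of 13.5 and 51.6. Its H3K9ac was 28.4 in control and 76.6 in 6AN, and its H3K4me3 was 9.37 and 8.75. The level of *MRPS18A* had a log2 ratio of -0.07 (SE 0.04) between conditions, and which gene this site acts on was not measured.

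With 6AN, most members of each group had lower mean levels than in control, most often the large-subunit genes with a bacterial homologue. The median log2 ratio of mean FPKM (6AN over control, pseudocount of 1) was -0.12 over the 77 members and -0.04 over all loci tested. Below 0 were 55 members (71.4%, all loci 55.0%), and 22 were above. By group, the median was -0.24 for large-subunit genes with a bacterial homologue and -0.07 for those particular to mitochondria. For small-subunit genes it was -0.13 with a bacterial homologue and -0.02 for those particular to mitochondria. In the same order, 78.6%, 68.2%, 68.8%, and 63.6% of the members were below 0. At all 12 time points, 17 members were lower in 6AN (22.1%, background 20.4%) and 4 were higher (5.19%, background 13.0%). The share of members lower throughout was thus close to the background, and 13 of these 17 were among the 28 large-subunit genes with a bacterial homologue. Every 6AN value lay below every control value for 6 members (background 10.3%), all of them in that same group, and above for 2 members (background 5.89%). With each library divided by its own median FPKM, 12 members were lower (15.6%, all loci 17.7%) and 6 higher (7.79%, all loci 15.0%) at all time points, and 6 lay below (all loci 8.95%) and 4 above control (all loci 7.07%) without overlap. Without CT04 and CT20, the time points of the shallowest libraries, an alternative chosen after seeing the data, 11 lay below without overlap (14.3%, all loci 11.4%) and 2 above (2.60%, all loci 6.60%).

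**Figure D2:**
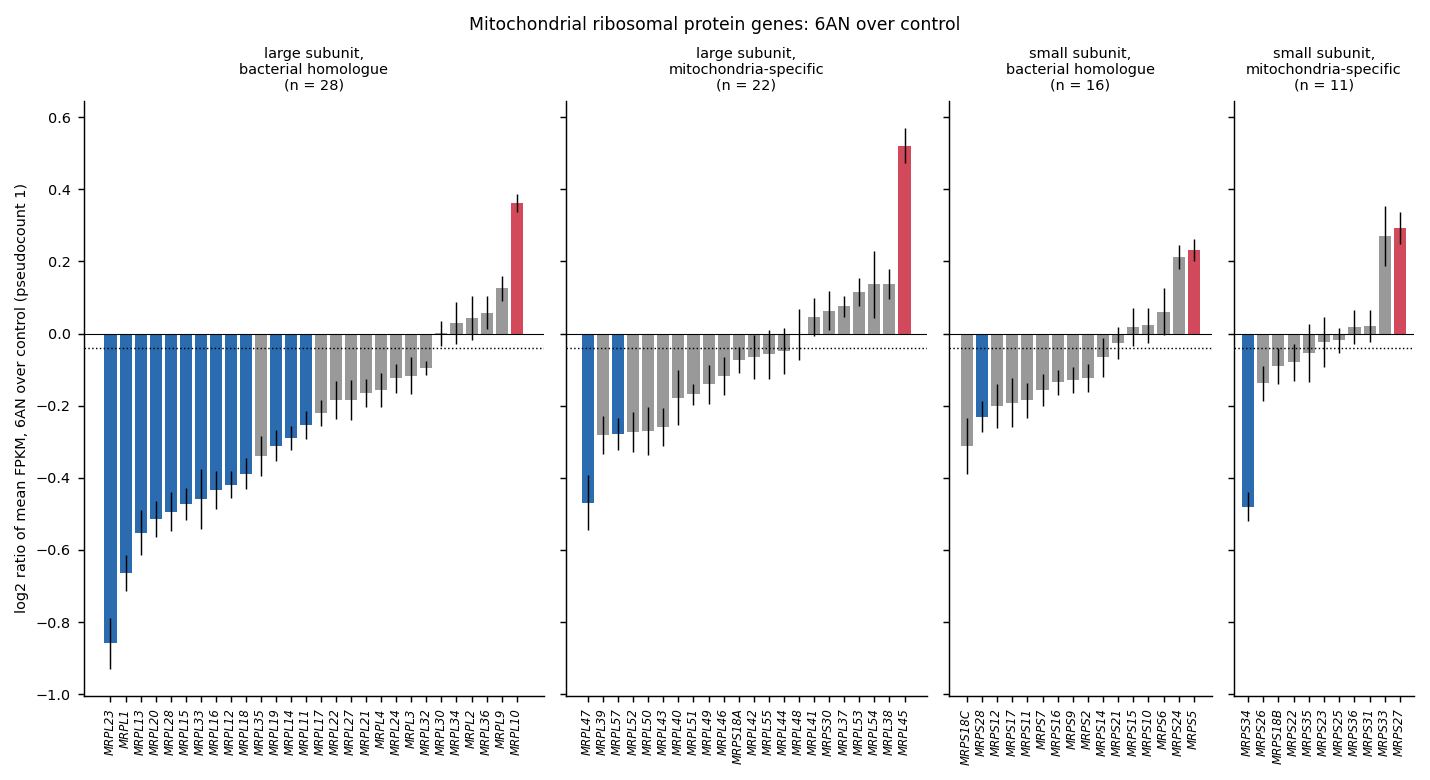
The log2 ratio of mean FPKM in 6AN over control (pseudocount of 1) for each of the 77 members, in 4 groups by subunit and origin. Bars are ratios and lines jackknife SE over 12 time points, with members lower (blue) or higher (red) in 6AN at every time point and the median of all loci tested as a dotted line at -0.04. The blue bars gather among the large-subunit genes with a bacterial homologue, 13 of 28.

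*MRPL23*, whose protein lies at the exit of the peptide tunnel, had the lowest ratio. Its FPKM in control was 46.1 at the lowest, 55.6 at the median, and 68.8 at the highest, and in 6AN 22.2, 31.0, and 35.2. The groups did not overlap, and the log2 ratio was -0.86 (SE 0.07), 0.544 of the control level. Control values of *MRPL23* lay at 2 levels, 46.1 to 50.4 FPKM in the libraries at CT04, CT08, CT16, CT24, CT32, and CT40 and 60.9 to 68.8 in the other 6, and even the lower level was above every 6AN value. *MRPL1*, which encodes the protein of the mobile L1 stalk where spent tRNA leaves, was next. It lay at 16.5, 20.3, and 24.4 FPKM in control (lowest, median, highest) and at 9.93, 11.8, and 14.8 in 6AN, again with no overlap, for a log2 ratio of -0.66 (SE 0.05).

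The other members without overlap were *MRPL13*, *MRPL20*, *MRPL28*, and *MRPL18*, all with bacterial homologues. *MRPL13* had 44.8 to 55.9 FPKM in control and 25.4 to 43.6 in 6AN (log2 ratio -0.55, SE 0.06). *MRPL20*, the homologue of a bacterial protein needed early in assembly of the large subunit, had 68.7 to 86.9 and 45.9 to 60.7 (-0.51, SE 0.05). *MRPL28* had 58.1 to 81.6 and 39.0 to 51.3 (-0.49, SE 0.05). *MRPL18*, homologue of the bacterial protein that binds 5S rRNA, had 74.2 to 102 and 54.7 to 71.9 (-0.39, SE 0.04). In all 4 the highest 6AN library was under the lowest control library, by the smallest margin in *MRPL13* and *MRPL18*.

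Lower at every time point but with overlapping ranges were *MRPS34* (log2 ratio -0.48, SE 0.04), *MRPL15* (-0.47, SE 0.04), *MRPL47* (-0.47, SE 0.08), *MRPL33* (-0.46, SE 0.08), *MRPL16* (-0.43, SE 0.05), *MRPL12* (-0.42, SE 0.04), and, with ratios from -0.31 to -0.23, *MRPL19*, *MRPL14*, *MRPL57*, *MRPL11*, and *MRPS28*. *MRPS34* was the 1 small-subunit member particular to mitochondria among them, at 82.4, 101, and 109 FPKM in control and 64.3, 69.2, and 82.8 in 6AN. *MRPL33* had the widest range between 6AN libraries in FPKM, from 118 to 225, against 204 to 281 in control.

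The stalk of the large subunit, which recruits translation factors, was split. *MRPL12* encodes its repeated L7/L12 protein, *MRPL10* the protein that anchors L7/L12, and *MRPL11* a protein of the stalk base. *MRPL12* lay at 93.4, 107, and 126 FPKM in control and 70.3, 80.4, and 95.5 in 6AN, so 6AN was lower with a small overlap. *MRPL11* was lower too, at 31.7, 34.6, and 44.3 in control and 23.5, 30.0, and 32.4 in 6AN (log2 ratio -0.25, SE 0.04). *MRPL10* went the other way. It lay at 35.6, 40.9, and 46.3 in control and 47.0, 52.8, and 61.1 in 6AN, with no overlap, for a log2 ratio of 0.36 (SE 0.02).

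*MRPL45*, whose protein holds the tunnel exit against the inner membrane, had the highest ratio of all members. Its FPKM was 24.9, 28.1, and 31.3 in control and 35.2, 40.2, and 46.7 in 6AN, a log2 ratio of 0.52 (SE 0.05), 1.45 times the control level with no overlap. At the same tunnel exit, *MRPL23* was the lowest member and *MRPL45* the highest. The small-subunit genes *MRPS27*, which encodes an RNA-binding pentatricopeptide repeat protein, and *MRPS5* were higher in 6AN at each time point. *MRPS27* lay at 28.3, 31.9, and 33.4 FPKM in control and 32.7, 38.4, and 44.3 in 6AN (log2 ratio 0.29, SE 0.04). *MRPS5* lay at 63.9, 68.6, and 75.4 in control and 73.7, 81.1, and 86.6 in 6AN (0.23, SE 0.03). Both overlapped slightly, because their 6AN libraries at the lowest levels were near the highest control libraries. *MRPS33* (0.27, SE 0.08) and *MRPS24* (0.21, SE 0.03) completed the 6 highest ratios and were higher at 11 of 12 time points.

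**Figure D3:**
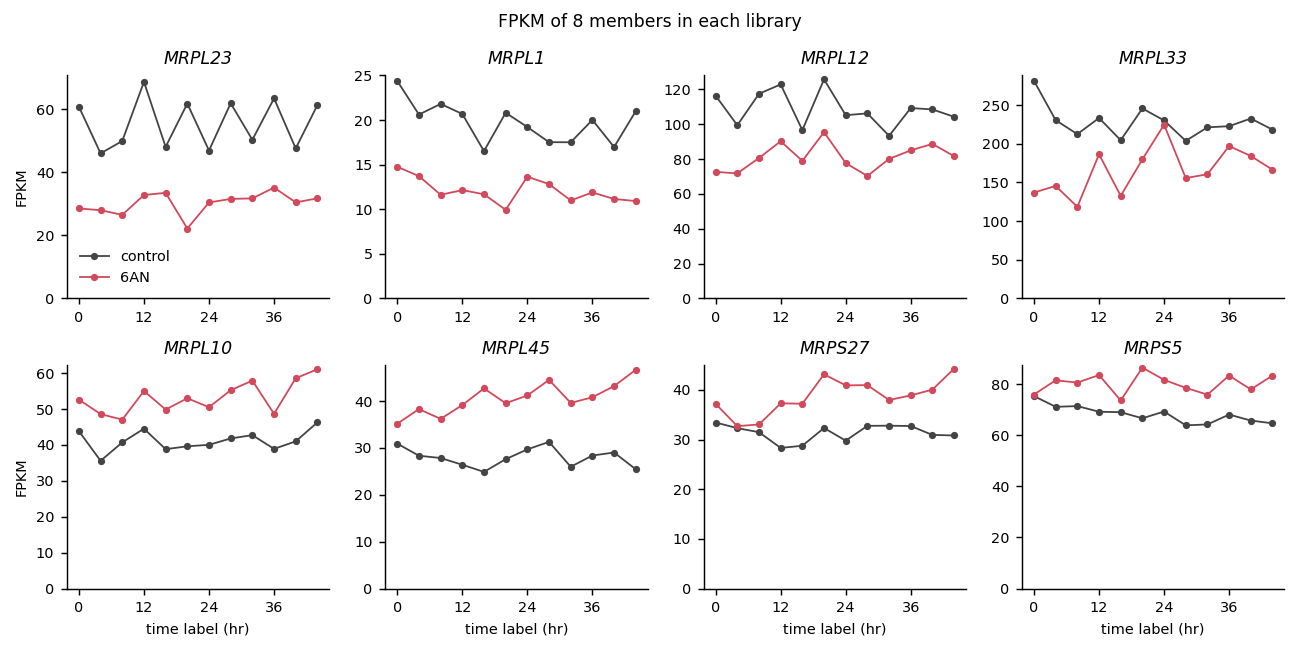
FPKM of 8 members in every library against the time label in hr, with control in grey and 6AN in red and 1 library per point. In the upper row (*MRPL23*, *MRPL1*, *MRPL12*, *MRPL33*) 6AN lies below control at all 12 time points, and in the lower row (*MRPL10*, *MRPL45*, *MRPS27*, *MRPS5*) above it.

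Paralogs and neighbors gave mixed values. The 3 MRPS18 genes are paralogs whose proteins occupy different places, that of *MRPS18C* in the bacterial S18 position. *MRPS18C* had a log2 ratio of -0.31 (SE 0.08) at 15.8, 22.3, and 32.6 FPKM in control and 14.0, 17.7, and 22.9 in 6AN. *MRPS18A* (-0.07, SE 0.04) and *MRPS18B* (-0.09, SE 0.05) were nearer 0, and 6AN and control overlapped in all 3. *MRPS12*, the homologue of the S12 protein of the decoding center, had 30.5, 33.8, and 42.4 FPKM in control and 25.9, 30.0, and 36.3 in 6AN (-0.20, SE 0.06). *MRPS11* and *MRPL46* lie head to head on chromosome 15 with transcript starts 320 bases apart. Their mean FPKM was 24.9 and 23.6 in control and 21.7 and 21.6 in 6AN, with log2 ratios of -0.19 (SE 0.05) and -0.12 (SE 0.05).

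The level ratio was also set out by promoter. The median log2 ratio was -0.14 for the 29 members with ETS letters and -0.09 for the 40 without, -0.07 for the 18 with YY1 letters and -0.13 for the 51 without, and -0.05 for the 10 with an E-box and -0.12 for the 59 without. It was -0.22 for the 3 with the NRF1 letters and -0.11 for the 66 without. It was -0.19 for the 23 members with a BMAL1 or CLOCK peak within 1 kb and -0.12 for the 54 without. Both directions were present among members with a peak, from *MRPL13* (-0.55) to *MRPL45* (0.52). These differences were not tested.

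Within a condition, change over time could be tested, since all 12 libraries shared a normalization. In control the members were nearly flat. A linear trend of log2(FPKM + 1) was fitted with limma for all 13979 loci, and 1 member rose (1.30%, background 3.13%) and 1 fell (1.30%, background 3.13%) at a Benjamini-Hochberg adjusted p of at most 0.05. *MRPS5* fell by 0.10 on the log2 scale per 24 hr (SE 0.02, limma adjusted p = 0.0216), from 75.4 FPKM at CT00 to 64.7 at CT44. *MRPS6* rose by 0.25 per 24 hr (SE 0.06, limma adjusted p = 0.0302), from 120 FPKM at CT00 to 148 at CT44 with its highest value, 173, at CT36. Its locus is shared with *SLC5A3*, a myo-inositol transporter gene. *MRPS5* was no longer called without CT00 (limma adjusted p = 0.0856), and *MRPS6* without CT00, CT04, CT08, CT36, or CT40 (limma adjusted p of 0.0589 to 0.0988) or with Spearman's rho.

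In 6AN, 12 members rose (15.6%, background 12.3%) and 3 fell (3.90%, background 13.1%). The median slope was 0.05 log2 per 24 hr over the members and 0 over all loci tested. *MRPS16*, homologue of a small-subunit assembly protein of bacteria, had the smallest p. It rose by 0.20 per 24 hr (SE 0.03, limma adjusted p = 0.000887), from 51.7 to 53.7 FPKM at CT00 to CT08 to 65.1 at CT40 and 66.3 at CT44. Its control values lay between 59.9 and 72.5 FPKM. The 6AN libraries from CT00 to CT16 and at CT36 (59.4 FPKM) were thus below all control libraries, and the other 6AN libraries lay within their range. *MRPS33* had the steepest slope, 0.38 per 24 hr (SE 0.08, limma adjusted p = 0.00576), from 32.5 FPKM at CT00 to 55.7 at CT44. *MRPL45* rose by 0.16 per 24 hr (SE 0.04, limma adjusted p = 0.00877), from 35.2 to 46.7 FPKM, with a control slope of -0.03 (SE 0.05). *MRPS16*, *MRPS33*, and *MRPL45* kept their call under each of 17 alternatives.

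The 9 other members that rose were *MRPL24*, *MRPL3*, *MRPS10*, *MRPL50*, *MRPL19*, *MRPL42*, *MRPS27*, *MRPL40*, and *MRPL41*, with slopes from 0.13 to 0.28 per 24 hr and limma adjusted p from 0.0126 to 0.0496. *MRPL40* and *MRPL41* held in 6 and 5 of 17 alternatives. Without the 6AN library at CT04, 4 members rose in place of 12, and no share of all loci was set beside this count. The members that fell in 6AN were *MRPL27*, *MRPL14*, and *MRPL38*. *MRPL27*, whose bacterial homologue reaches toward the peptidyl transferase center, fell by 0.22 per 24 hr (SE 0.05, limma adjusted p = 0.00577), from 78.4 FPKM at CT00 to 58.7 at CT44. *MRPL14*, whose protein lies at the interface of the subunits, fell by 0.15 (SE 0.03, limma adjusted p = 0.0105), and *MRPL38* fell by 0.21 (SE 0.05, limma adjusted p = 0.0132). In control the same 3 genes had slopes of -0.14 (SE 0.07), -0.10 (SE 0.06), and -0.12 (SE 0.08) that did not pass. The slopes of the 2 conditions were not tested against each other, because they come from tables normalized apart.

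**Figure D4:**
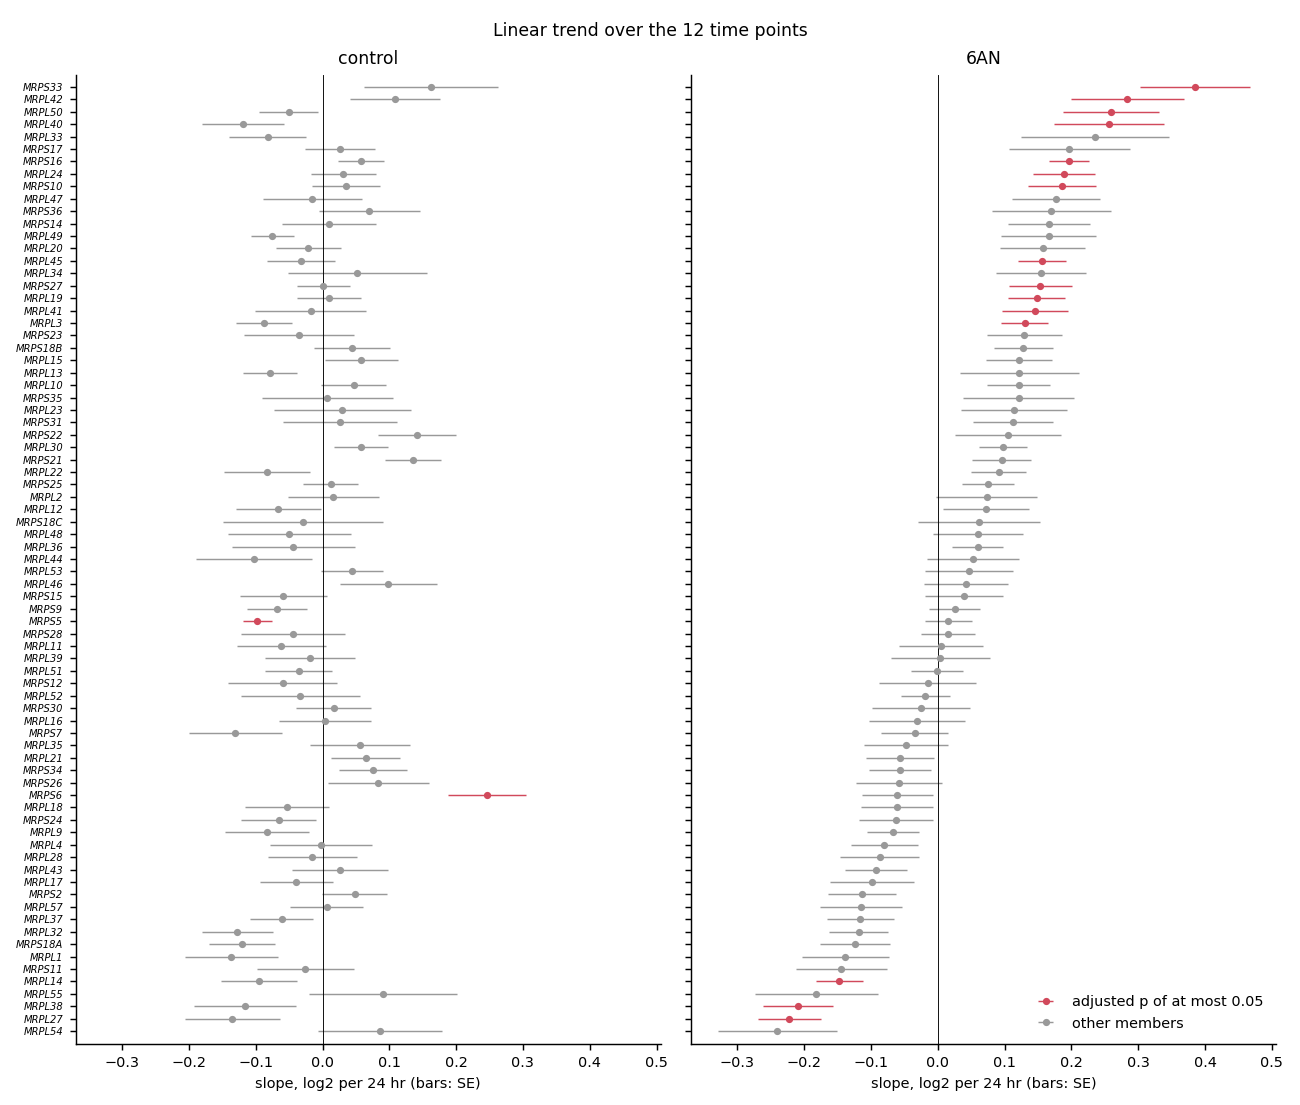
Slope of log2(FPKM + 1) per 24 hr for each of the 77 members in control and 6AN, in the order of the 6AN slope. Points are limma estimates with SE bars and red marks an adjusted p of at most 0.05. Red points number 2 in control and 15 in 6AN, of which 12 are above 0.

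A rhythm with a period of 24 hr was not detected in any member. A permutation rank test for umbrella shapes of 24 hr, built after RAIN, called 0 of 77 members at p of at most 0.01 in control (background 1.04%) and 0 in 6AN (background 1.11%). This test was not the RAIN program itself. In both conditions it called fewer loci than the number of transcripts the authors reported with RAIN at the same threshold. At an unadjusted p under 0.05 it had 2 members in control (2.60%, all loci 5.04%) and 3 in 6AN (3.90%, all loci 4.19%). The limma test of a 24 hr cosine and sine had 2 in each (all loci 5.11% in control and 4.75% in 6AN). The smallest umbrella p among members was 0.0314 in control, for *MRPL43*, and 0.0182 in 6AN, for *MRPL12* (permutation test, Benjamini-Hochberg adjusted p = 0.938 and 0.996). *MRPL40*, with BMAL1 and CLOCK peaks in both conditions, was not called either. No locus of the tables reached an adjusted p of 0.05 in either rhythm test. Both tests called shares of all loci close to the p threshold itself, as a test would with no rhythm at any locus. With 12 libraries per condition, the count of 0 of 77 members thus cannot decide whether members lack a rhythm. A rhythm in a member may go undetected.

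Members shared part of their movement from library to library. In control, the median deviation of the 77 members from their own means ran from -0.11 (CT04) to 0.10 (CT12) on the log2 scale, while that of all loci tested stayed between -0.02 and 0.01. At CT12, 64 of 77 members were above their mean, and at CT16 only 12 were. In 6AN the range was -0.08 (CT08) to 0.07 (CT12). The correlation of a member with the mean of the other members over 12 time points had a median of 0.52 in control and 0.32 in 6AN, against 0.09 and 0.06 for the correlation of all other loci with the member mean. The same mean was followed by cytosolic ribosomal protein genes (median r of 0.81 in control and 0.69 in 6AN) and by nuclear OXPHOS genes (0.59 and 0.46). These points share libraries and depth, the control library at CT04 was the shallowest of its table, and the part of depth in the shared movement was not tested. *MRPL17* followed the others most closely in control (r = 0.91) and *MRPS10* least (r = -0.32).

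**Figure D5:**
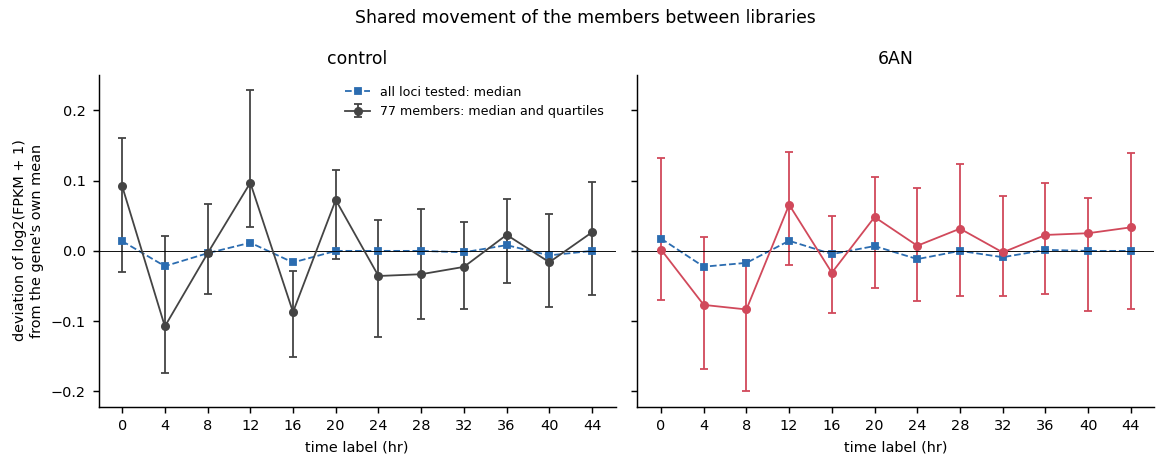
Deviation of log2(FPKM + 1) from each gene's own mean, by time label in hr, as the median and quartiles of the 77 members (circles and bars) and the median of all loci tested (blue squares). In control the members run from -0.11 at CT04 to 0.10 at CT12 while all loci stay near 0.

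Other parts of the mitochondrial translation system and the cytosolic ribosome were set beside the members. The 6 mitoribosomal proteins with other names were *AURKAIP1* (log2 ratio -0.26, SE 0.04), *CHCHD1* (-0.35, SE 0.06), *GADD45GIP1* (-0.32, SE 0.07), *PTCD3* (-0.25, SE 0.05), *ICT1* (-0.04, SE 0.04), and *DAP3* (0.07, SE 0.03), and 0 of them had a trend that passed in either condition. The 79 nuclear OXPHOS genes, whose complexes hold the products of these ribosomes, had a median log2 ratio of -0.27. At all 12 time points, 39 of them were lower in 6AN (background 20.4%) and 4 higher (background 13.0%). Of 74 cytosolic ribosomal protein genes, 0 were lower and 58 higher (background 13.0%) at all time points, with a median of 0.37. Over time in 6AN, 64 of them rose (background 12.3%). The 2 sets of ribosomal protein genes thus had medians of opposite sign, -0.12 and 0.37. The sum of the mean FPKM of the members was 4337 in control and 3969 in 6AN. Without members at loci shared with other genes it was 3894 and 3480. Over all loci tested the sum was 1.047e+06 in control and 1.196e+06 in 6AN, so these totals also differed between the separately normalized conditions.

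A list of 16 translation factors and genes that handle mitochondrial mRNA or its products was mixed in level. In 6AN, 6 of them rose (*MTIF2*, *LRPPRC*, *GFM1*, *GUF1*, *GFM2*, and *MRRF*; 12.3% of all loci rose) and 0 fell, with slopes of 0.18 to 0.42 log2 per 24 hr. In control 0 of 16 passed in either direction. The highest level ratios were those of *OXA1L*, the insertase of the inner membrane (0.37, SE 0.03), and *LRPPRC*, which stabilizes mitochondrial mRNA (0.36, SE 0.06). The lowest were *SLIRP*, the partner of *LRPPRC* (-0.60, SE 0.07), and *MTRF1L*, a release factor (-0.43, SE 0.05). Of 19 genes for assembly and rRNA modification, 3 were higher (background 13.0%) and 3 lower (background 20.4%) in 6AN at all time points. *NOA1*, a GTPase of mitoribosome assembly, lay at 0.56 (SE 0.05) and *MRM1* at 0.26 (SE 0.07), while *TFB1M*, which methylates the small rRNA, lay at -0.72 (SE 0.06) and *FTSJ2*, a methyltransferase of the large rRNA, at -0.53 (SE 0.05).

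Among regulators known to act on genes for mitochondrial proteins, *MYC* was 33.5 to 60.4 FPKM in control and 88.8 to 124 in 6AN (log2 ratio 1.12, SE 0.04), and *ESRRA* was 14.2 to 20.8 and 26.1 to 32.2 (0.70, SE 0.06), both without overlap. *POLRMT*, the mitochondrial RNA polymerase, was higher at all time points (0.25, SE 0.03) and *TFAM*, which packages mitochondrial DNA, lower at all (-0.24, SE 0.05). *NRF1* had a ratio of -0.23 (SE 0.07) and fell by 0.26 per 24 hr in 6AN (SE 0.05, limma adjusted p = 0.00472), whereas *MYC*, *ESRRA*, and *TFAM* rose by 0.15, 0.12, and 0.17 (limma adjusted p of 0.0353, 0.0304, and 0.0492). *GABPA* (-0.09, SE 0.02), *YY1* (0.10, SE 0.03), *PPRC1* (-0.18, SE 0.03), and *TFB2M* (-0.13, SE 0.06) differed less, and *PPARGC1A* and *PPARGC1B* were under the expression filter. Of the 9 regulators tested, 0 had a trend that passed in control.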

How the data were processed

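Gene expression came from 24 RNA-seq libraries and binding from 10 ChIP-seq libraries. The authors deposited FPKM per locus of a merged annotation on hg38, in 1 table per condition, each normalized across its own libraries. The submitters' processing notes name Bowtie, TopHat, Cufflinks, Bowtie2, and HOMER, with versions not given in the sources used here. In the ChIP-seq files, the authors gave HOMER signal, scaled tags at sites that BMAL1 and CLOCK shared, and in the deposited merged peak list a HOMER score. Only the positions and list membership of merged peaks were used. RNA was extracted in triplicate, and whether extracts were pooled is not given in the sources used here. All per-sample columns were used.

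The members and gene lists were chosen with earlier results of these data known. A pseudocount of 1 was added to FPKM before log2, and loci with a mean of at least 1 FPKM were kept. Trends were fitted with limma 3.58.1 in R 4.3.3 (line over time, intensity trend in the prior) and adjusted by Benjamini-Hochberg over all loci kept. The umbrella test used 18 shapes with rises of 8, 12, or 16 hr and 1000000 random orders. Both were tested on simulated data first. Peak intervals were counted within 1 kb of a locus. Relative depth was read from the most common ratio between libraries over loci with a mean FPKM under 0.5. Python 3.11.15 with NumPy 2.4.6 and pandas 2.3.3 computed the values and matplotlib 3.10.9 drew the plots.

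Genes were named by a rule: the 5 highest and 5 lowest levels, the 6 highest and 6 lowest ratios, up to 10 members higher, lower, or without overlap at all time points by size of the ratio, up to 8 members with a trend per condition by p, MRPS18 paralogs, *MRPL10*, *MRPL11*, *MRPL12*, *MRPL45*, *MRPS12*, and members with peaks. Of the lists, all genes were named up to 12 and otherwise the 2 highest and 2 lowest ratios. The further members lower at all time points or with a trend, *MRPS11*, *MRPL46*, *MRPL17*, and the translation factors with a trend were named after their values were seen. Alternatives covered pseudocount, filter, scaling, model, rank test, distance to a peak, and leaving out each time point.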

Additional observations from a re-analysis of the deposited data

How the results depend on the processing

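The median log2 ratio of the members stayed between -0.13 and -0.09 with another pseudocount, scaling by library medians, medians over time, or no shared loci and between -0.13 and -0.12 when 1 time point was left out. The scaling by library medians shifted the median of all loci from -0.04 to -0.01, and the number of members with every 6AN value above every control value from 2 to 4. Of members lower or higher at all time points, 17 and 4 became 12 and 6 under that scaling. Without CT04 and CT20, an alternative chosen after seeing the data, members without overlap numbered 13 in place of 8 and those below control 11 in place of 6. The control trend had 2 called members, 1 with a 24 hr cosine and sine or with Spearman's rho (0 rising in both), and 0 to 2 with 1 time point left out (0 to 1 rising and 0 to 1 falling, with 0 falling without CT00). In 6AN the count of 15 ran from 7 to 16, rising from 4 to 12 (4 without CT04), and falling from 2 to 6 (6 without CT08, 5 without CT44), and the cosine and sine gave 6 falling. The cause of these shifts was not tested, and no share of all loci was set beside these trend counts. With an umbrella threshold of 0.05, 2 members in control and 3 in 6AN passed, against 705 and 586 of 13979 loci. Counted from RefSeq transcript starts, also chosen after seeing the data, 19 of 69 members had a peak within 1 kb, against 2224 of 10106 expressed genes. Of 289 alternative slopes of called members, 237 kept their call, 52 lost it, and 0 turned direction, and all 345 alternative ratios of named members kept their sign. With 1 library per condition and time point, variation between experiments is unknown, and depth is known only relative to the same table.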
